A study of Arabidopsis thaliana with 18 samples.

Results

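EXPA8 (AT2G40610) and EXPA9 (AT5G02260), a pair of alpha-expansin genes of Arabidopsis thaliana, were selected by symbol from the probe table of the array because their transcripts moved in opposite directions in the cold. Each gene had 1 probe set, so they made up 2 of the 22810 probe sets and 2 of the 13513 that the table assigns to a single gene. The changes during low temperature (LT) treatment chose them, so these changes are described here without a test, while differences between the genotypes were tested. Expression was measured on 18 Affymetrix ATH1 arrays as log2 values, on which 1 unit is a doubling of the signal. The vte2 mutant is deficient in tocopherols (vitamin E), because it is without a working homogentisate phytyl transferase, which joins the aromatic head group of tocopherols to their tail; Col is the wild type. Both genotypes were grown for 4 weeks at 22°C in 12 h of light and 18°C in the dark, and were harvested before LT treatment (0 h) or after 48 or 120 h at 7°C under the same light cycle. There were 3 arrays for vte2 and 3 for Col at each time. Each array held RNA of leaves 9 to 11 from 3 plants, collected 1 h into the light cycle.

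Expansins are secreted proteins that loosen the plant cell wall. They act without cutting wall polymers, most strongly in an acidic wall, and let cells enlarge under turgor pressure. The family consists of the alpha-expansins (EXPA), the beta-expansins (EXPB) and the expansin-like genes (EXLA and EXLB), and many members are known for expression in growing organs.

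Features of the arrays bear on both genes. Of the 77 probe sets that differed between vte2 and Col at 48 h, 51 also differed at 120 h, and all 51 had the opposite sign there. As labelled, 71 of the 77 had the opposite sign at 120 h, called or not. The study, in contrast, describes the largest group of its 48 h genes as induced more strongly and persistently in vte2. Arrays at 120 h are therefore named by their labels, no direction of the genotype at 120 h is taken as settled, and the differences and changes of EXPA8 and EXPA9 at 120 h are also given with the labels of the 6 arrays exchanged. Replicate 3 of both genotypes stood apart at 0 h. Measured against replicates 1 and 2, this shift correlated between vte2 and Col with r = 0.791 over all probe sets, and the changes at 48 h and the differences at 0 h are also given without these arrays. Of 12 listed genes of leaf mesophyll, 3 could be named. The leaf genes RCA (rubisco activase), PSAE-1 (a photosystem I subunit) and LHCB4.2 (a light-harvesting protein) were at medians of 13.28, 12.53 and 11.25, and the root hair expansins EXPA7 and EXPA18 stayed between 3.44 and 4.23 in all 18 arrays. No listed marker of epidermis, trichomes, flowers or pollen was named. The lower quartile of all values lay between 3.54 and 3.71 in every array; no detection calls were used, so whether a value close to that level is above background was not determined.

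EXPA8 was high before LT treatment and low after 48 h. At 0 h it was at 6.59, 6.25 and 7.62 in vte2 replicates 1, 2 and 3, and at 7.37, 7.51 and 8.90 in the Col replicates. At 48 h it was at 3.53, 3.85 and 3.86 in vte2 and at 3.72, 4.22 and 4.03 in Col. In both genotypes every 48 h array lay far below every 0 h array, and replicate 3 was the highest array of each genotype at 0 h. At 120 h it was at 5.99, 5.34 and 6.06 in the arrays labelled vte2 and at 4.11, 3.82 and 4.42 in those labelled Col. The arrays labelled vte2 had thus moved part of the way back toward the 0 h level, without reaching the lowest 0 h array of vte2, whereas those labelled Col remained in the range of the 48 h arrays of both genotypes or slightly above it.

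As a description, EXPA8 was lower at 48 h than at 0 h by a log2 difference of -3.08 in vte2 (standard error of the difference, SE, 0.38) and of -3.94 in Col (SE 0.38). The 48 h values lay within the range of the root hair expansins EXPA7 and EXPA18 in these leaves, so the size of the drop below that level is not known and no fold is given. At 120 h the difference from 0 h was -1.03 in the arrays labelled vte2 and -3.81 in those labelled Col (SE 0.38 each). With the labels exchanged these were -2.71 in vte2 and -2.13 in Col. Averaged over both genotypes, which does not depend on the labels, the change was -3.51 at 48 h and -2.42 at 120 h (SE 0.27 each). The change at 48 h was -2.68 in vte2 and -3.45 in Col without both replicate 3 arrays at 0 h, and that at 120 h was -0.63 in the arrays labelled vte2 and -3.33 in those labelled Col.

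EXPA9 ran the other way. At 0 h it was at 3.96, 4.22 and 4.92 in vte2 and at 5.12, 4.55 and 4.92 in Col. At 48 h it was at 5.85, 6.08 and 6.55 in vte2 and at 7.35, 7.30 and 7.53 in Col. All 48 h arrays lay above all 0 h arrays, and those of Col were closer together than those of vte2 and higher. At 120 h it was at 6.23, 6.70 and 6.24 in the arrays labelled vte2 and at 5.43, 5.65 and 5.84 in those labelled Col. The 120 h arrays still lay above every 0 h array, and the arrays labelled Col lay well below the Col arrays of 48 h.

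As a description, EXPA9 was higher at 48 h than at 0 h by 1.80 in vte2 (log2, SE 0.24), or 3.47-fold, and by 2.53 in Col (SE 0.24), or 5.77-fold. Ordered from the highest change, EXPA9 stood at rank 905 in vte2 and at rank 288 in Col. At 120 h the difference from 0 h was 2.02 in the arrays labelled vte2 and 0.78 in those labelled Col (SE 0.24 each), or 1.27 in vte2 and 1.53 in Col with the labels exchanged. Averaged over both genotypes it was 2.16 at 48 h and 1.40 at 120 h (SE 0.17 each). Without both replicate 3 arrays at 0 h, the change at 48 h was 2.07 in vte2 and 2.56 in Col, and that at 120 h was 2.30 in the arrays labelled vte2 and 0.81 in those labelled Col.

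**Figure D1:**
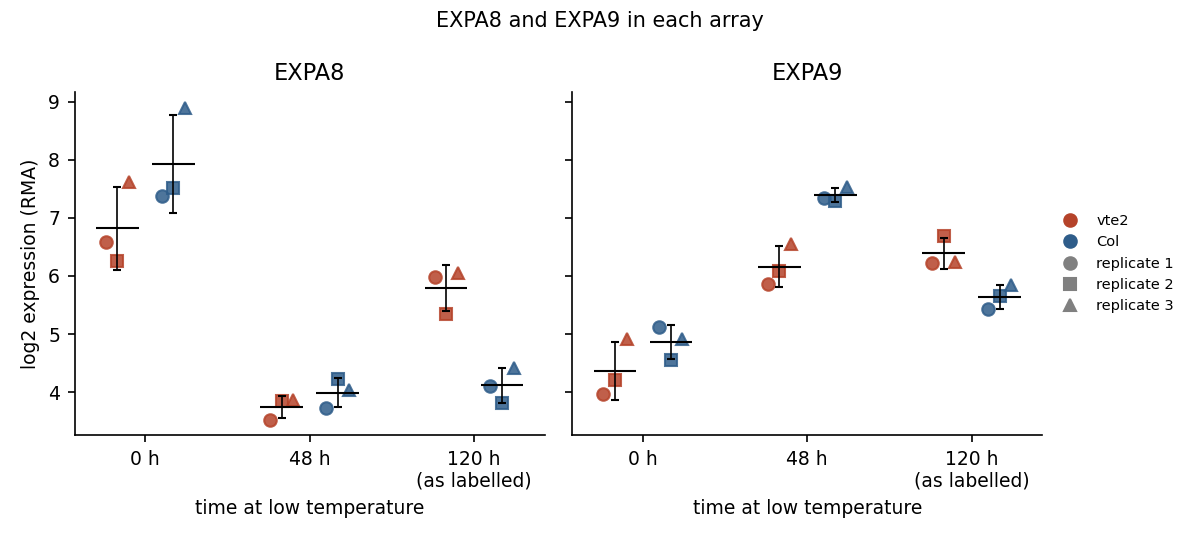
Log2 expression of EXPA8 (left) and EXPA9 (right) in each of the 18 arrays by time at low temperature, with vte2 in red and Col in blue, symbols for the replicate number, and lines and bars for the mean and SD of 3 arrays. EXPA8 dropped to 3.53 to 4.22 at 48 h in both genotypes, whereas EXPA9 reached 5.85 to 7.53.

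Both genes moved back toward their 0 h levels between 48 and 120 h when both genotypes are averaged. The change from 48 to 120 h, averaged over both genotypes, was 1.09 for EXPA8 (log2, SE 0.27) and -0.76 for EXPA9 (SE 0.17). Over the 6 arrays of each time, the median of EXPA8 was 7.44 at 0 h, 3.86 at 48 h and 4.88 at 120 h, and that of EXPA9 was 4.73, 6.92 and 6.03. As labelled, the arrays that returned were different for the 2 genes. EXPA8 was higher at 120 h than at 48 h by 2.05 in arrays labelled vte2 and by 0.12 in those labelled Col (SE 0.38 each), and EXPA9 differed by 0.23 in arrays labelled vte2 and by -1.75 in those labelled Col (SE 0.24 each). With the labels exchanged, these changes were 0.37 in vte2 and 1.80 in Col for EXPA8, and -0.52 in vte2 and -1.004 in Col for EXPA9.

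In the order of the 6 group means, EXPA8 was highest in Col at 0 h, followed by vte2 at 0 h, the arrays labelled vte2 and those labelled Col at 120 h, Col at 48 h and vte2 at 48 h. The arrays of the 2 groups at 0 h overlapped, as did those of neighbours within the lowest 3 groups. EXPA9 was highest in Col at 48 h, followed by the arrays labelled vte2 at 120 h, vte2 at 48 h, the arrays labelled Col at 120 h, Col at 0 h and vte2 at 0 h. Here the arrays labelled vte2 at 120 h overlapped with those of vte2 at 48 h, and the groups at 0 h overlapped with each other. All other neighbours in both orders did not overlap.

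Mesophyll markers and some guard cell lineage markers also changed at 48 h. The summed log2 level of the 3 named mesophyll genes was 39.1 to 39.5 in vte2 and 39.2 to 39.6 in Col at 0 h, 33.6 to 34.0 and 34.8 to 35.4 at 48 h, and 37.6 to 37.8 and 36.6 to 36.7 in arrays labelled vte2 and Col at 120 h. Between vte2 and Col, LHCB4.2 differed by -0.82 at 48 h (limma adjusted p = 0.029) and, as labelled, by 0.62 at 120 h (limma adjusted p = 0.0202). RCA and PSAE-1 passed at neither time. LHCB4.2 stands in the list that the study drew from these arrays at 48 h, so this is not independent evidence. Averaged over both genotypes, each of the 3 fell at 48 h (RCA by 0.64, PSAE-1 by 1.07 and LHCB4.2 by 3.27). Of the 3 named genes of the guard cell lineage, FMA fell by 0.42 (limma adjusted p = 0.00785) and SPCH by 0.29 (limma adjusted p = 0.00608), and MUTE changed by -0.27 (limma adjusted p = 0.0921). In this averaged comparison 24.6% of all probe sets were called lower. By genotype, SPCH changed by -0.03 in vte2 (limma adjusted p = 0.852) and by -0.55 in Col (limma adjusted p = 0.00112). FMA changed by -0.38 in vte2 (limma adjusted p = 0.0887) and by -0.46 in Col (limma adjusted p = 0.0445). SPCH and MUTE were at medians of 3.51 and 3.30, below the lower quartile of the arrays. SWEET11, a sucrose transporter of phloem parenchyma, changed by -0.17 at 48 h (limma adjusted p = 0.594), and at 120 h it was at 11.0 to 11.4 in arrays labelled vte2 and at 10.1 to 10.2 in those labelled Col (limma adjusted p = 0.0941). The part of these genes in the levels of EXPA8 and EXPA9 was not tested. In whole leaves, fewer cells of a type and less RNA per cell cannot be told apart.

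To ask whether tocopherol deficiency was associated with different expansin levels before LT treatment, vte2 was compared with Col at 0 h in a linear model of all probe sets (limma, p-values adjusted over the 22810 probe sets with the Benjamini and Hochberg method, threshold 0.05). EXPA8 averaged 6.82 ± 0.71 in vte2 and 7.93 ± 0.84 in Col (SD, n = 3 each). The log2 difference was -1.11 (SE 0.38, 95% interval -1.92 to -0.29) and did not pass the test (limma adjusted p = 0.428), in a comparison that called 0.00877% of probe sets. By replicate number the difference was -0.78, -1.26 and -1.28, so that vte2 was the lower one in each of the 3 numbers although the groups overlapped. Same-numbered arrays of the genotypes deviated together at 0 h. The shift of replicate 3 enters the deviations of all replicates from their group mean, so pairing of the others was not shown separately. With the replicate number as a block, EXPA8 passed the test (SE 0.12, limma adjusted p = 0.0473). The block also pairs arrays at the later times, for which pairing was not accepted. EXPA8 also passed without both replicate 3 arrays at 0 h, at -1.02 (SE 0.25, limma adjusted p = 0.0309). That fit called 1.99% of all probe sets higher and 2.58% lower in vte2. Without vte2 replicate 3 alone EXPA8 passed at -1.51 (limma adjusted p = 0.0457), where 591 probe sets were called, against 2 with all arrays. Without Col replicate 3 alone the difference was -0.62. Over all alternatives the adjusted p ranged between 0.0309 and 1. EXPA9 averaged 4.37 ± 0.50 in vte2 and 4.86 ± 0.29 in Col (SD, n = 3 each), a difference of -0.50 (SE 0.24, limma adjusted p = 0.59) that passed with no alternative. Its differences by replicate number were -1.16, -0.33 and -0.00044, so the third pair was level.

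At 48 h, EXPA9 was expressed at a lower level in vte2. It averaged 6.16 ± 0.35 in vte2 and 7.39 ± 0.12 in Col (SD, n = 3 each), a difference of -1.23 (SE 0.24, limma adjusted p = 0.0419), or 2.35-fold, and all 3 vte2 arrays lay below all 3 Col arrays. In this comparison 0.338% of all probe sets were called in either direction and 0.123% of all as lower in vte2. EXPA9 stands in the list of genes that the study drew from these same arrays, so this is not independent evidence. The call stood close to the threshold, with an adjusted p of 0.000222 to 0.265 over all alternatives. It was lost without any 1 of the Col replicates at 48 h, or without vte2 replicates 1 or 2 at 48 h (-1.28 to -1.08, limma adjusted p = 0.0978 to 0.265). With the difference unchanged, it was also lost without Col replicate 1 at 0 h, any array labelled Col at 120 h, or replicate 1 or 3 labelled vte2 at 120 h (limma adjusted p = 0.0513 to 0.0706). EXPA8 showed no comparable difference at 48 h, with 3.75 ± 0.19 in vte2 and 3.99 ± 0.25 in Col (SD, n = 3 each), a difference of -0.25 (SE 0.38, 95% interval -1.06 to 0.57, limma adjusted p = 0.999). This SE rests on 1 estimate of spread over all arrays, and EXPA8 varied most at 0 h (SD 0.71 in vte2 and 0.84 in Col). Without both replicate 3 arrays at 0 h the SE at 48 h was 0.20, with the same difference. The EXPA8 values of this time point lay close to the lower quartile of the arrays.

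At 120 h, the means of both transcripts were higher in the arrays labelled vte2 than in those labelled Col, and only the EXPA8 difference passed the test. EXPA8 averaged 5.79 ± 0.40 in arrays labelled vte2 and 4.11 ± 0.30 in those labelled Col (SD, n = 3 each), a difference of 1.68 (SE 0.38, limma adjusted p = 0.0152), in a comparison that called 6.53% of probe sets. With the labels exchanged, EXPA8 was lower in vte2 by the same amount, -1.68. The call was lost without replicate 1 or 2 labelled Col, or replicate 1 or 3 labelled vte2, at 120 h (1.53 to 1.68, limma adjusted p = 0.0513 to 0.0775, against 1.04e-05 to 0.0775 over all alternatives). EXPA9 averaged 6.39 ± 0.27 in arrays labelled vte2 and 5.64 ± 0.20 in those labelled Col (SD, n = 3 each), a difference of 0.75 (SE 0.24, limma adjusted p = 0.0814), or of -0.75 with the labels exchanged. This did not pass in the fit to all arrays. Among its alternatives, whose adjusted p lay between 0.00234 and 0.277, it passed with 5: only the 120 h arrays (limma adjusted p = 0.00334), array weights (0.00234), the replicate block (0.0417), both replicate 3 arrays at 0 h left out (0.0175) and vte2 replicate 3 at 0 h left out (0.0265). The replicate block pairs arrays at 120 h, where pairing was not accepted. Array weights called 6035 probe sets in this comparison, and the fit without vte2 replicate 3 at 0 h called 1947, against 1490 in the fit to all arrays. Without both replicate 3 arrays at 0 h, 7.2% of all probe sets were called higher and 6.74% lower. All 3 arrays labelled vte2 lay above all 3 labelled Col for both genes.

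**Figure D2:**
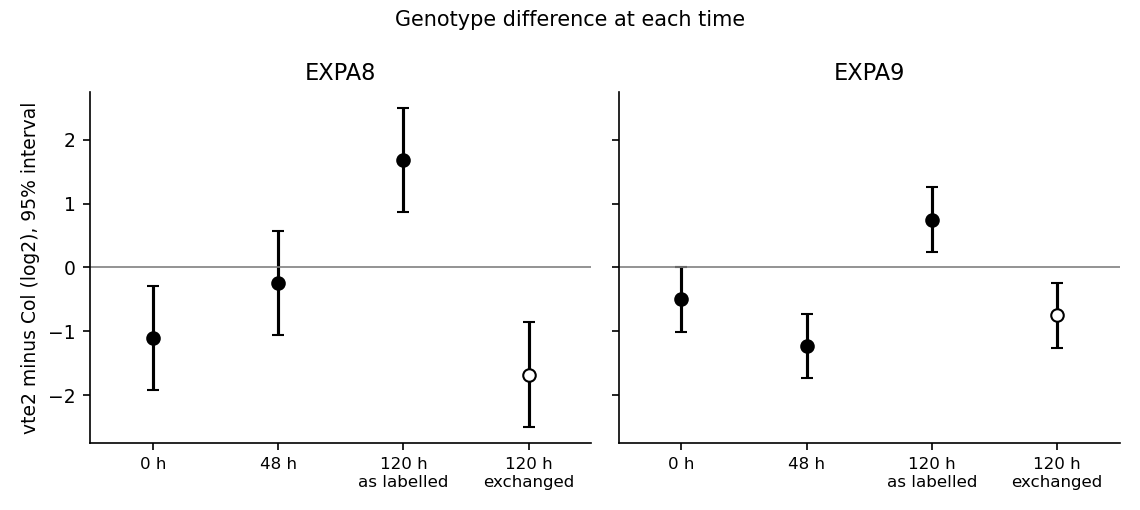
Log2 difference between vte2 and Col for EXPA8 (left) and EXPA9 (right) at each time, with 95% intervals from limma; filled points use the deposited labels and the open point exchanges the labels at 120 h. At 48 h EXPA9 was at -1.23 and EXPA8 at -0.25, and at 120 h the sign depended on the labels.

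Whether the LT changes differed between the genotypes was tested directly as an interaction. From 0 to 48 h the change in vte2 minus that in Col was 0.86 for EXPA8 (log2, SE 0.54, limma adjusted p = 0.787) and -0.73 for EXPA9 (SE 0.34, limma adjusted p = 0.671), so neither difference passed in a comparison that called 0.0526% of probe sets. These values moved with single arrays at 0 h, to 0.37 for EXPA8 without Col replicate 3 and to -0.46 for EXPA9 without vte2 replicate 3. From 0 to 120 h, as labelled, it was 2.79 for EXPA8 (SE 0.54, limma adjusted p = 0.0136), where 2.27% of probe sets were called, and 1.25 for EXPA9 (SE 0.34, limma adjusted p = 0.0703). With only the arrays compared, EXPA8 did not pass (limma adjusted p = 0.0654). EXPA9 passed with the replicate block (limma adjusted p = 0.035), without both replicate 3 arrays at 0 h (1.49, limma adjusted p = 0.008) and without vte2 replicate 3 alone (1.52, limma adjusted p = 0.00811). These fits without replicate 3 arrays called 1758 and 1169 probe sets, against 518 in the fit to all arrays. The block also pairs the 120 h arrays, for which pairing was not accepted. With the labels exchanged, the differences were -0.57 for EXPA8 (limma adjusted p = 0.716) and -0.25 for EXPA9 (limma adjusted p = 0.826).

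The change from 48 to 120 h was compared in the same way after the values had been seen. As labelled, it was higher in vte2 than in Col by 1.93 for EXPA8 (SE 0.54, limma adjusted p = 0.0499) and by 1.98 for EXPA9 (SE 0.34, limma adjusted p = 0.00238), and 5.91% of probe sets were called. For EXPA8 the call was kept only without Col replicate 1 or 3 at 0 h, vte2 replicate 2 or 3 at 0 h, or replicate 2 labelled vte2 at 120 h; without any other single array it was lost (1.78 to 2.08, limma adjusted p = 0.0527 to 0.129). For EXPA9 it was kept without each array. With the labels exchanged, the differences were -1.43 for EXPA8 (limma adjusted p = 0.513) and 0.48 for EXPA9 (limma adjusted p = 0.949).

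Across all 18 arrays the levels of the 2 genes had a correlation of -0.655, which the choice of genes with opposite cold changes enters. After the mean of each group was subtracted, the correlation of their deviations was 0.321 over the 18 arrays, and -0.185 over 16 arrays without both replicate 3 arrays at 0 h. EXPA8 was shifted in replicate 3 at 0 h by 1.20 in vte2 and 1.46 in Col relative to the other replicates, and EXPA9 by 0.83 in vte2 and 0.08 in Col.

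Beside EXPA8 and EXPA9, 17 expansin genes could be named. At 48 h of LT treatment, none of them rose in either genotype. In vte2, 2 fell and in Col, 4 fell (unadjusted p under 0.05 for 2 genes in vte2 and 6 in Col). Among all probe sets, 17.2% were called higher and 17.2% lower in vte2, and 16.1% higher and 16.2% lower in Col. The median change of the 17 was -0.16 in vte2 and -0.30 in Col, against -0.06 and -0.08 over all probe sets. EXPA16, an alpha-expansin, fell in both genotypes, with a log2 change of -1.09 in vte2 (SE 0.26, limma adjusted p = 0.00394) and of -2.001 in Col (SE 0.26, limma adjusted p = 2.34e-05). EXPB1, a beta-expansin, fell by 1.43 in vte2 and by 1.67 in Col (SE 0.35 each). The expansin-like genes EXLA2 and EXLA3 fell in Col by 2.27 (SE 0.76) and 0.72 (SE 0.23), and their changes of -1.42 and -0.15 in vte2 did not pass the test. EXPA4 changed by 0.71 in vte2 and by -1.24 in Col, neither of which passed. The remaining genes, EXPA7, EXPA15, EXPA18, EXPA20, EXPA21, EXPA24, EXPB2, EXPB3, EXPB5, EXLA1, EXLB1 and AT4G30380, which the reference gene table also calls EXLB2, had no call at 48 h. EXPA7, EXPA18, EXPA21, EXPA24, EXPB5, EXLA3 and AT4G30380 had group means of 3.20 to 3.92, near the lower quartile of the arrays. The fall of EXLA3 in Col, from 3.92 to 3.20, lay at that level. Whether these genes were above background was not determined, and they enter all counts of the 17.

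These counts moved with the choice of 0 h arrays. EXLA1 was at 11.95, 9.54 and 7.13 in vte2 and at 10.77, 10.90 and 6.26 in Col at 0 h, so that replicate 3 was the lowest array of both genotypes. At 48 h it was at 9.20, 9.17 and 8.81 in vte2 and at 7.75, 5.66 and 6.71 in Col. Without both replicate 3 arrays at 0 h, 5 of the 17 genes fell in each genotype (EXPA16, EXPB1, EXLA1, EXLA2 and EXLA3), and EXPA4 and EXLB1 rose in vte2; in that fit 20.5% of all probe sets were called higher and 21.7% lower in vte2, and 19.1% higher and 19.6% lower in Col. At 120 h, as labelled, 2 of the 17 genes were lower than at 0 h in vte2 (EXPA16 and EXLA1) and 3 in Col (EXPA16, EXPB1 and EXLA2), and none was higher. Of all probe sets, 14% were called higher and 9.53% lower in arrays labelled vte2, and 16.3% higher and 12.7% lower in those labelled Col. With the labels exchanged there were 3 lower in vte2 and 2 in Col, where 12.3% and 10.1% of all probe sets were lower. Without both replicate 3 arrays at 0 h the arrays labelled vte2 had 4 genes below and 3 above 0 h, and those labelled Col had 5 below and 1 above. The shares of all probe sets in that fit were 16.3% below and 19.4% above in arrays labelled vte2, and 16.9% below and 20.9% above in those labelled Col.

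**Figure D3:**
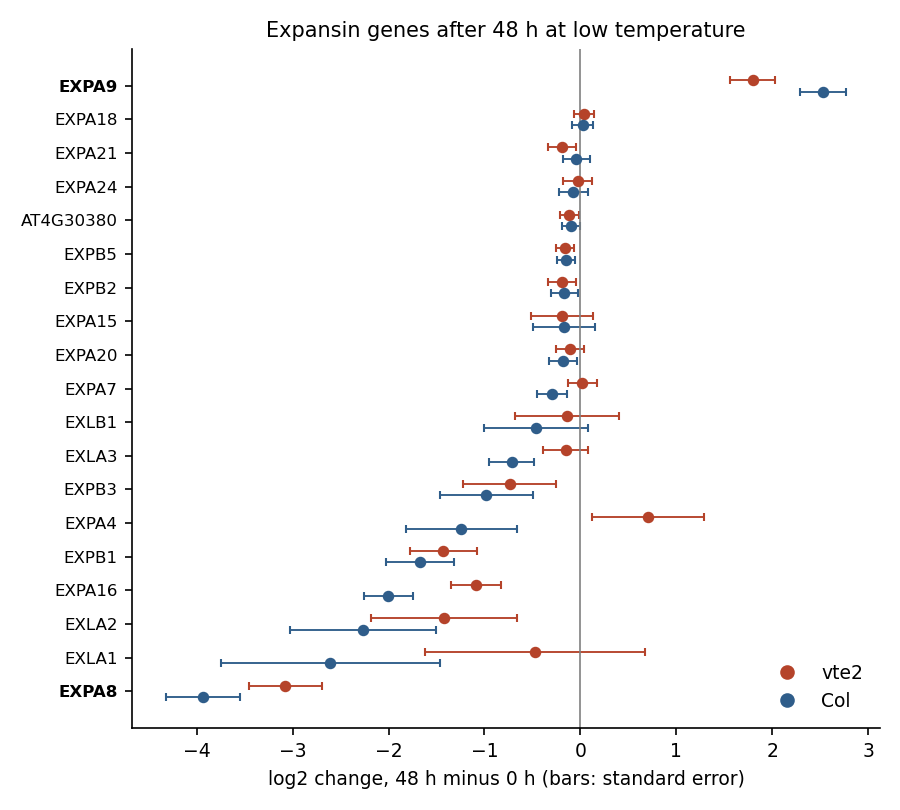
Log2 change during 48 h at low temperature of the 19 named expansin genes, with vte2 in red above Col in blue and bars for the SE from limma. EXPA9 lay at 1.80 in vte2 and 2.53 in Col and EXPA8 at -3.08 and -3.94, and the other genes ran between 0.71 and -2.61.

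None of the 17 expansins differed between vte2 and Col at 0, 48 or 120 h in limma, with unadjusted p under 0.05 for 1, 0 and 1 of them, and none differed in its LT change from 0 to 48 h, from 0 to 120 h or from 48 to 120 h (unadjusted p under 0.05 for 2, 2 and 0). When the replicate 3 arrays at 0 h were omitted, EXPA16, EXLB1 and EXPB3 were lower in vte2 at 0 h, where 2.58% of all probe sets were lower, and EXLA1 was higher in vte2 at 48 h, where 0.662% were higher. In that fit the LT change was also higher in vte2 for EXPA4 from 0 to 48 h (1.79% of all probe sets) and, as labelled, for EXLB1 and EXPB3 from 0 to 120 h (4.28%), and lower in vte2 for EXPA4 and EXLA1 from 48 to 120 h (5.95%). EXPA16 was at 5.19, 6.13 and 6.21 in vte2 and at 6.83, 7.02 and 6.36 in Col at 0 h, so that all 3 vte2 arrays lay below all 3 Col arrays.

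**Figure D4:**
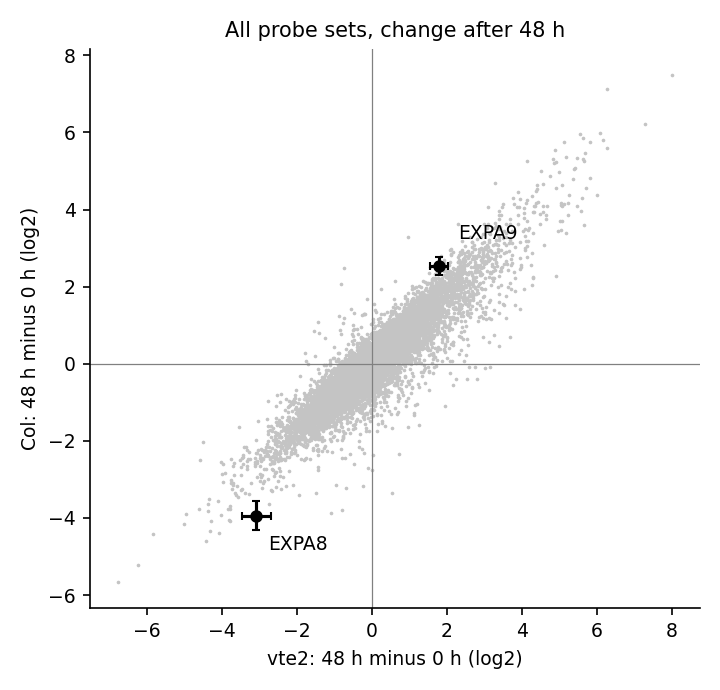
Change during 48 h at low temperature of all 22810 probe sets in vte2 (horizontal) and Col (vertical), in log2 units, with EXPA8 and EXPA9 in black and bars for their SEs. EXPA8, at -3.08 and -3.94, lay near the lower end of all probe sets, and EXPA9, at 1.80 and 2.53, lay on the side of higher values.

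Other genes of wall remodelling changed in both directions at 48 h. Of 10 named xyloglucan endotransglucosylases (XTH), which cut and rejoin the xyloglucan chains between cellulose microfibrils, 3 rose and 1 fell in vte2, and 1 rose and 1 fell in Col, beside 17.2% of all probe sets in each direction in vte2, and 16.1% higher and 16.2% lower in Col. XTH18 rose by 4.97 in vte2 (log2, SE 1.04, limma adjusted p = 0.00147) and by 3.44 in Col (SE 1.04, limma adjusted p = 0.0192), while XTH32 fell by 0.89 in vte2 and by 1.05 in Col (SE 0.27 each). Of 8 cellulose synthase-like genes, which make backbones of other wall polysaccharides, 3 fell in vte2 and 3 in Col, and none rose (unadjusted p under 0.05 for 4 genes in vte2 and 6 in Col). CSLA01 fell in Col by 1.40 (SE 0.37, limma adjusted p = 0.00843) and changed by -0.53 in vte2 (limma adjusted p = 0.305). Of 3 pectin enzymes, 1 rose and 1 fell in vte2, and 0 rose and 1 fell in Col. ATPMEPCRB, chosen after its values were seen, rose by 2.46 in vte2 (SE 0.74, limma adjusted p = 0.0171) and changed by 1.64 in Col (limma adjusted p = 0.108). PME61, a pectin methylesterase gene by its symbol, fell by 1.63 in vte2 and by 1.62 in Col (SE 0.31 each). The medians of the XTH and cellulose synthase-like lists were 0.18 and -0.42 in vte2 and -0.05 and -0.71 in Col, against -0.06 in vte2 and -0.08 in Col over all probe sets. No plasma membrane proton pump of the AHA family and no aquaporin of the PIP or TIP families could be named. When both replicate 3 arrays at 0 h were left out, 4 cellulose synthase-like genes fell in vte2, and 5 fell and 1 rose in Col; of the XTH genes, 3 rose and 2 fell in vte2, and 1 rose and 2 fell in Col. In that fit 20.5% of all probe sets were higher and 21.7% lower in vte2, and 19.1% higher and 19.6% lower in Col.

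To describe which transcripts ran most like each expansin, Pearson's r was taken over the 18 arrays between each gene and the 13512 other probe sets with a single gene. These arrays share the LT change, so a high r is a description. The 5 genes most like EXPA8 were AT5G19290 (r = 0.965), AT1G32470 (0.953), PRA1.F1 (0.951), AT3G01210 (0.947) and AT2G28410 (0.947), and 127 probe sets had r over 0.9. AT5G19290 changed by -2.27 in vte2 and by -2.01 in Col at 48 h, and at 120 h it differed between arrays labelled vte2 and Col by 0.86. The 5 most like EXPA9 were TAAC, an ATP/ADP carrier of the thylakoid (r = 0.942), AT4G24175 (0.936), AT2G28600 (0.93), AT2G42910 (0.924) and AT3G04820 (0.922), with 35 probe sets over 0.9. TAAC was higher at 48 h by 1.17 in vte2 and by 1.44 in Col, and its difference between vte2 and Col at 48 h was -0.46. The names depended on the measure. With Spearman's rho, none of the 5 genes of EXPA8 and 3 of the 5 of EXPA9 remained among the first 5, and over the 6 group means none did for either gene. The 10 genes still had rho of 0.87 to 0.95 with their expansin.

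**Figure D5:**
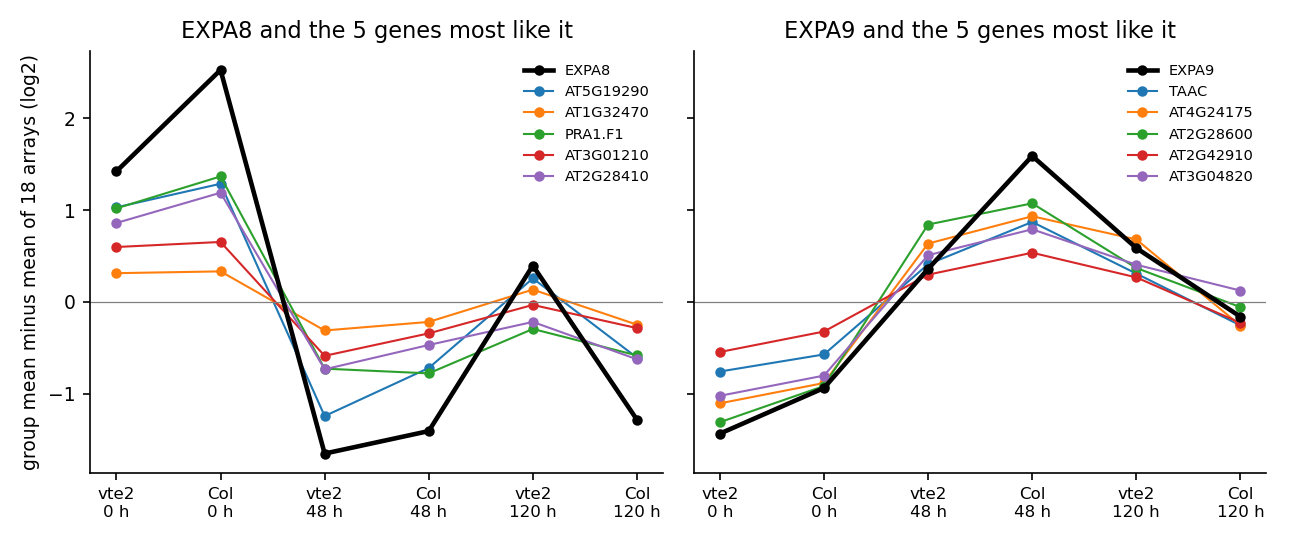
Mean of each of the 6 groups minus the mean of all 18 arrays (log2) for EXPA8 (left) and EXPA9 (right) in black, with the 5 genes of highest Pearson's r in colour; 120 h groups are as labelled. The group means of EXPA8 ran between 3.75 and 7.93, and those of EXPA9 between 4.37 and 7.39.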

How the data were processed

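The deposited log2 values of 18 ATH1 arrays were used as given. The authors obtained them by RMA (affy, perfect match probes only), with background adjustment, quantile normalization and summarization of each of 22810 probe sets. RMA compresses differences among low values, and the number of arrays limits the precision.

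Group means (6) were modelled for every probe set with limma 3.58.1 in R 4.3.3, with 12 residual degrees of freedom and Benjamini-Hochberg adjustment within each comparison; the script was tested on simulated data. The platform's probe table gave 1 gene for 13513 probe sets, several for 503 and none listed for 8794, and the RefSeq gene table of TAIR10.1 gave loci and synonyms. Where a gene had several probe sets, the brightest was taken. EXPA8, EXPA9 and all lists were chosen with earlier results of these data known. Genes named in the text were EXPA8, EXPA9, the other named expansins, the largest rise and fall per list among genes called in Col at 48 h, and the 5 genes most like each expansin; others were picked after their values were seen.

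The labels call the replicates biological. Deviations of same-numbered vte2 and Col arrays from their group means correlated across probe sets at 0 h (0.397 to 0.791). This failed for at least 1 pair at 48 h (0.054 to 0.302) and at 120 h (-0.151 to 0.0096), and pairing was accepted at 0 h only. The deviations of a group sum to 0, so the shift of replicate 3 at 0 h also enters the correlations of the other replicates. Whether those other arrays were paired was therefore not determined. The alternatives were a replicate block, other sets of arrays, cyclic loess, median centring, omission of the dimmest 40% of probe sets, array weights, a trended prior, adjustment over all comparisons of a family and exchanged labels at 120 h. The interaction from 48 to 120 h and averages over genotypes were added after seeing the data. Protein and promoter sequences were not analysed here.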

Additional observations from a re-analysis of the deposited data

Results flagged for a closer look

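Between 0 and 120 h, EXPA8 changed differently in vte2 and Col, by 2.79 (log2, vte2 minus Col as labelled, limma adjusted p = 0.0136). The arrays labelled vte2 at 120 h lay between the vte2 arrays of 0 h and 48 h, while 2 of the 3 labelled Col lay within the range of Col at 48 h.

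Between 48 and 120 h, both genes changed differently in vte2 and Col, by 1.93 for EXPA8 (limma adjusted p = 0.0499) and by 1.98 for EXPA9 (limma adjusted p = 0.00238). These comparisons were added after the values were seen. With the labels at 120 h exchanged, none of the 3 differences passed, at -0.57 and -1.43 for EXPA8 and 0.48 for EXPA9. No test for single outlying arrays was run within the groups of 3, although each array was left out in turn.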

How the results depend on the processing

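With the labels of the 6 arrays at 120 h exchanged, the difference between vte2 and Col at 120 h reversed to -1.68 for EXPA8 and -0.75 for EXPA9, and the difference of the LT change from 0 to 120 h to -0.57 for EXPA8 and -0.25 for EXPA9. That from 48 to 120 h reversed to -1.43 for EXPA8 and was 0.48 for EXPA9, no longer past the threshold. The change at 120 h from 0 h became -2.71 in vte2 and -2.13 in Col for EXPA8, and 1.27 in vte2 and 1.53 in Col for EXPA9. The change from 48 to 120 h became 0.37 in vte2 and 1.80 in Col for EXPA8, and -0.52 in vte2 and -1.004 in Col for EXPA9. The cause was not tested.

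The replicate block pairs same-numbered arrays at every time, although pairing was accepted at 0 h only. With the replicate number as a block, EXPA8 at 0 h (-1.11, limma adjusted p = 0.0473), EXPA9 at 120 h (0.75, adjusted p = 0.0417) and the difference of the EXPA9 change from 0 to 120 h (1.25, adjusted p = 0.035) passed the threshold, and no other call on EXPA8 or EXPA9 changed. Without both replicate 3 arrays at 0 h these results also passed, at -1.02, 0.75 (limma adjusted p = 0.0175) and 1.49. That fit called 1042 probe sets between vte2 and Col at 0 h, against 2 in the fit to all arrays. EXPA9 at 120 h further passed with array weights, at 0.67 (limma adjusted p = 0.00234), and with only the arrays compared, at 0.75. The difference of the EXPA8 change from 0 to 120 h did not pass with only the arrays compared, at 2.79; that fit had fewer samples. The within-group correlation of EXPA8 with EXPA9 turned to -0.185 without both replicate 3 arrays at 0 h.

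With single arrays left out, vte2 minus Col ranged between -1.51 and -0.62 for EXPA8 at 0 h, -1.42 and -1.08 for EXPA9 at 48 h, 1.53 and 1.91 for EXPA8 at 120 h, and 0.59 and 0.85 for EXPA9 at 120 h. The difference of the change from 0 to 48 h ranged between 0.37 and 1.26 for EXPA8 and -0.94 and -0.46 for EXPA9, that from 0 to 120 h between 2.30 and 3.19 for EXPA8 and 1.04 and 1.52 for EXPA9, and that from 48 to 120 h between 1.78 and 2.15 for EXPA8. Over all alternatives the adjusted p of the difference from 0 to 120 h lay between 8.18e-05 and 0.716 for EXPA8 and 0.008 and 0.826 for EXPA9, and that from 48 to 120 h between 0.000204 and 0.513 for EXPA8 and 5.8e-06 and 0.949 for EXPA9.

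Counts of called probe sets moved more. Against 2 between vte2 and Col at 0 h there were 0 to 1042, against 77 at 48 h there were 32 to 961, and against 1490 at 120 h there were 757 to 6035. For the differences of LT changes the counts were 12 (2 to 763) from 0 to 48 h, 518 (259 to 1758) from 0 to 120 h and 1348 (35 to 5450) from 48 to 120 h. The count of changes from 0 to 120 h in arrays labelled vte2 was 5358 (3196 to 8141). Of the 5 genes most like EXPA8, 0 were kept with Spearman's rho, without both replicate 3 arrays at 0 h or over group means, and of those most like EXPA9, 3, 3 and 0. With 3 arrays per group, low values of EXPA8 at 48 h limit what could be detected there.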

Other observations

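Among 12 named genes of auxin response, WES1, a member of the GH3 family of auxin-conjugating enzymes, moved in opposite directions in the genotypes at 48 h. It rose by 0.78 in vte2 (log2, SE 0.14, limma adjusted p = 0.000342) and fell by 0.52 in Col (SE 0.14, limma adjusted p = 0.00807), and these changes differed by 1.30 (SE 0.19, limma adjusted p = 0.0223). At 48 h, WES1 was higher in vte2 than in Col by 0.76 (limma adjusted p = 0.0287), a direction opposite to that of EXPA9. WES1 averaged 4.34 in vte2 and 4.88 in Col at 0 h, and at 120 h it was called lower in arrays labelled vte2, by a difference of -0.78 that turns with the labels. WES1 was singled out after its values were seen and stands in the list that the study drew from these same arrays, so this is not independent evidence. GH3.3, of the same family, changed by -0.18 in vte2 and fell by 1.57 in Col (limma adjusted p = 0.0383), and IAA29, an auxin-induced repressor gene, fell by 1.03 in vte2 and by 1.01 in Col. In Col, GH3.3 was at 3.25 to 5.99 at 0 h and at 3.35 to 3.59 at 48 h, so the lowest 0 h array lay below all 48 h arrays. IAA29 averaged 3.48 in vte2 and 3.62 in Col at 48 h. Both genes thus ended near the lower quartile of the arrays. In all, 1 of the 12 rose and 1 fell in vte2, and 0 rose and 3 fell in Col, with medians of -0.15 in vte2 and -0.19 in Col. Over all probe sets, 17.2% were higher and 17.2% lower in vte2 and 16.1% higher and 16.2% lower in Col, with medians of -0.06 in vte2 and -0.08 in Col. Without both replicate 3 arrays at 0 h, 1 rose and 3 fell in vte2, and 0 rose and 4 fell in Col, beside 20.5% higher and 21.7% lower of all probe sets in vte2 and 19.1% higher and 19.6% lower in Col.

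Of the gibberellin receptors, GID1B rose at 48 h by 1.40 in vte2 (SE 0.28, limma adjusted p = 0.000934) and by 1.05 in Col (SE 0.28, limma adjusted p = 0.00859), and GID1A changed by 0.55 in vte2 (limma adjusted p = 0.124) and rose by 0.88 in Col (limma adjusted p = 0.0169). At 120 h, GID1B was lower in arrays labelled vte2 than in those labelled Col by a difference of -1.31 (limma adjusted p = 0.00957), which turns with the labels. No PIF gene could be named.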
